A study of Mus musculus with 10 samples.

Results

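Among 51322 peaks of serine 2-phosphorylated RNA polymerase II (Pol II S2P) in cultured muscle stem cells (MuSCs), 589 were at least 2000 bases long, lay on an autosome and carried a gene identifier in the deposited table. These long peaks were chosen by their length alone, and length was set in a peak union built from libraries of both genotypes. Their length and their Pol II S2P level are therefore given as description. The shortest members just inside the limit were listed for Ccdc39, Ubfd1 and Npm1 (2000, 2001 and 2002 bases), and the longest peaks just outside it for Gm21992, Gm5738 and Mmachc (1999, 1996 and 1996 bases).

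CUT&RUN, in which an antibody-bound nuclease releases the DNA around its target, was run on MACS-purified MuSCs expanded in culture from C57BL/6 mice of the genotypes Pax7CreERT/Suv4-20h1WT (Ctrl) and Pax7CreERT/Suv4-20h1KO (sKO). Both carry the tamoxifen-driven CreERT recombinase under Pax7, which is active in satellite cells, so the sKO lacks Suv4-20h1 (gene symbol Kmt5b), an enzyme that adds methyl groups to H4K20me1, only where Pax7 drove recombination. Each genotype gave 2 Pol II S2P libraries and 2 H4K20me1 libraries, stated to be biological replicates. The deposited values are scores, coverage per peak scaled by the authors to a Drosophila spike-in and rounded, with library sums of 3257665 to 4885638 for Pol II S2P and 15218720 to 35046570 for H4K20me1. Read depth cannot be read from them. Kmt5b had 2 short Pol II S2P peaks, the longer of 314 bases, with summed scores of 24 and 62 for Ctrl against 48 and 22 for sKO, so the deletion could not be checked here. Of 11 MuSC markers 9 had a Pol II S2P peak listed, among them Pax7, with Myf5 and Cdh15 lacking one. The summed scores were 14197 and 18612 for Ctrl against 20417 and 14161 for sKO. Sums over lists of fibroblast and fibro-adipogenic, endothelial, immune and glial and neural markers stayed between 94 and 1523 in every library. A peak was listed for 4 of 9 fibroblast and fibro-adipogenic markers and 2 of 8 endothelial markers. For immune markers it was 4 of 8, and for glial and neural markers 2 of 5. Pdgfra, Cdh5 and Ptprc were among those without one. The immune sums were 991 and 1124 for Ctrl against 1523 and 960 for sKO. The long peak listed for Cd68, centred past the end of Eif4a1, scored 863, 952, 1308 and 840 in the same order.

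Serine 2 in the repeats of the Pol II tail is phosphorylated by CDK9 and CDK12 as the enzyme elongates, and the mark accumulates towards the 3′ end of genes. There it helps to recruit cleavage and polyadenylation factors. After the transcript is cleaved at the poly(A) site, Pol II keeps transcribing the downstream DNA for kilobases until it terminates. MicroRNAs are cut as hairpins out of long primary transcripts, which are made by the same polymerase. H4K20me1, placed by SET8 (KMT5A), is found over the bodies of transcribed genes.

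The sequences below are shown because the long peaks lay over, or just past, the units that carry them. The first set holds the last 30 bases, read along the gene, of 5 genes described below, from the RefSeq GRCm38.p6 genome at GENCODE M21 gene ends. The poly(A) signal hexamer (AATAAA or ATTAAA) is in capitals. Actg1 ended at chr11:120345690-120345719 (minus strand), Hnrnpa2b1 at chr6:51460932-51460961 (minus), Srsf3 at chr17:29043344-29043373 (plus), Myod1 at chr7:46379070-46379099 (plus) and Eef1a1 at chr9:78478449-78478478 (minus).
Actg1: gtaaagaAATAAAagtgctgcagtaactga
Hnrnpa2b1: ttactgtctAATAAAatataccttactatg
Srsf3: ttattATTAAAagacactgacttaaagttg
Myod1: gttggaAATAAAgacgctaatttatacaaa
Eef1a1: accATTAAAacaagtttaatgagaaatctg

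The second set holds mature microRNAs, from RefSeq (GRCm38.p6), whose hairpins lay inside long peaks or, for let-7d, just before one. The seed, bases 2 to 8, is in capitals. The clusters on chromosomes 8 and 13 carry the same seeds for miR-27 (UCACAGU) and the identical miR-24-3p. The 3 let-7 members share GAGGUAG.
miR-23a-3p: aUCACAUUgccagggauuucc
miR-27a-3p: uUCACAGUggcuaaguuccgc
miR-27b-3p: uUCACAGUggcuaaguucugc
miR-24-3p: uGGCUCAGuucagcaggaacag
miR-206-3p: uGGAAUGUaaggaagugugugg
miR-133b-3p: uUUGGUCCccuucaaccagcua
miR-21a-5p: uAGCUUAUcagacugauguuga
let-7b-5p: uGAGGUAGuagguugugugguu
let-7c-5p: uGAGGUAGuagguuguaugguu
let-7d-5p: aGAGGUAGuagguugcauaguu

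The long peaks had a median length of 2999 bases (quartiles 2366 and 4253). There were 102 over 5000 bases and 10 over 10000, up to 15826 bases in Aopep. They were assigned to 518 genes, 532 of the peaks to protein-coding genes, 43 to lncRNAs and 14 to other gene types. The table gave no symbol for 64, of which 62 were named from GENCODE. By mean score per kb, which divides the score by the peak length, their median was 201.7 (quartiles 169.7 and 243.6), against 117.9 for the 36667 shorter autosomal peaks with a gene. Over the long peaks, length and score per kb had a Spearman correlation of 0.335, a description in which both axes share the peak call. The number per Mb of chromosome ranged from 0.0881 on chromosome 14 (11 peaks) to 0.459 on chromosome 11 (56 peaks). Neighbours were common: 88 lay within 1000 bases of another long peak.

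Position was not used by the rule. The centres of 458 of 589 (77.8%) lay 0 to 10 kb downstream of a protein-coding 3′ end. Among shorter peaks with a gene the share was 28.0%, and such windows cover 7.78% of autosomal sequence. The share rose with length, from 26.1% of peaks under 500 bases to 47.8% at 1 to 2 kb, 71.5% at 2 to 3 kb and 84.9% at 3 to 5 kb. It was 82.4% at 5 kb and over. These shares were not tested.

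**Figure D1:**
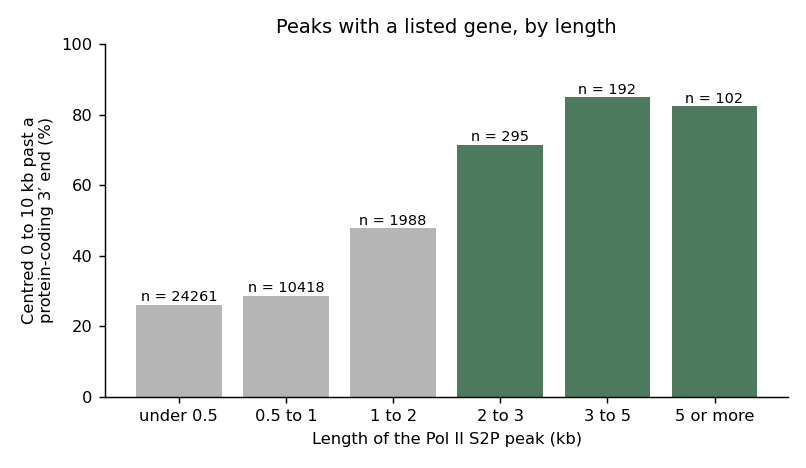
Bars give the percentage of autosomal Pol II S2P peaks with a listed gene whose centre lay 0 to 10 kb past a protein-coding 3′ end (vertical axis), by peak length in kb (horizontal axis), with the number of peaks above each bar and the long peaks in green. The share was 26.1% under 0.5 kb and 84.9% at 3 to 5 kb.

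The 458 peaks lay past the ends of 438 genes. Their centres were a median of 2295.5 bases past the end, and their far edges a median of 4244 bases (quartiles 2834 and 6328). The far edge was over 10000 bases downstream for 18 peaks. The peak crossed the 3′ end itself in 199 cases and began downstream of it in 259, with the upstream edge within 500 bases of the end in 133. A second gene on the opposite strand also ended within 10 kb upstream of the centre for 109 of the 458 (23.8%). CUT&RUN carries no strand, so the part of 2 such converging genes cannot be told apart.

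**Figure D2:**
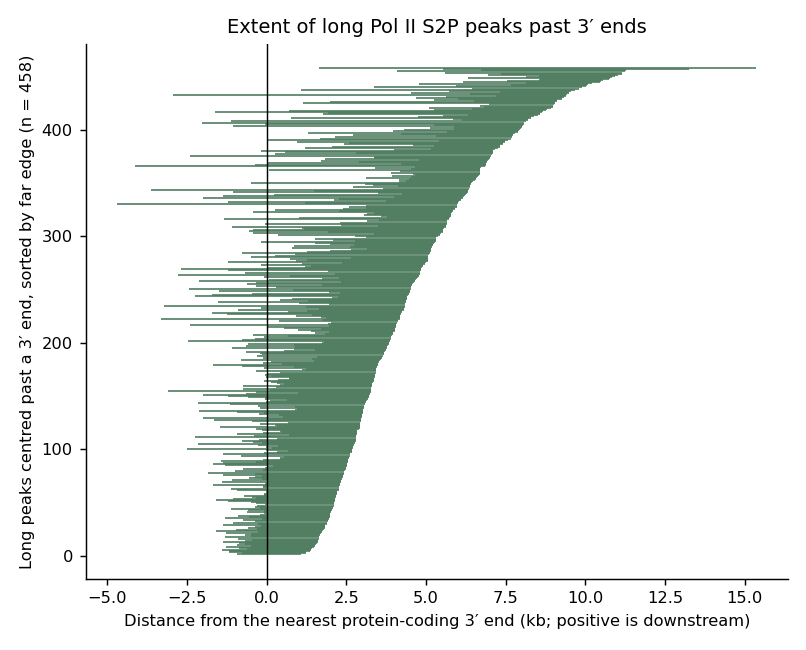
Each horizontal line is 1 of the 458 long peaks centred past a protein-coding 3′ end, drawn from its upstream to its downstream edge in kb relative to that end (vertical line at 0) and sorted by the downstream edge. The downstream edges had a median of 4244 bases and lay over 10000 bases downstream for 18 peaks.

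The listed gene was the gene with the nearest upstream 3′ end for 118 of these 458 peaks. For 340 it was another gene, in 214 cases on the opposite strand. The label of peaks on active genes therefore need not refer to the listed gene. Where both genes could be located (338 peaks), the start of the gene ending upstream lay within 500 bases of another Pol II S2P peak in 286 (84.6%), and the start of the listed gene in 140 (41.4%). Only the upstream gene had such a peak in 170 cases and only the listed gene in 24. The long peak itself was not counted for either gene, and 149 of the 589 long peaks covered the start of their listed gene. A listed start under the long peak alone was thus counted as having no peak. This can lower the share for listed genes, so these shares do not show which gene was active. Of all 20807 autosomal protein-coding genes, 34.8% had a start within 500 bases of any Pol II S2P peak. No peak was left out there, so this share is not a like measure. Measured against the listed gene alone, 391 centres lay inside it, 132 past its end and 66 before its start. A long peak covered the 3′ end of some protein-coding gene in 42.1% of cases and a start in 27.2% (shorter peaks with a gene, 2.32% and 12.2%), shares that grow with length by construction.

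Some long peaks carried a neighbour's name. The peak listed for Nfe2l3, a transcription factor gene, at chr6:51451536-51463857 ran from 2925 bases before to 9396 bases after the end of Hnrnpa2b1, which encodes an hnRNP splicing factor. It scored 3731 and 4724 for Ctrl against 7073 and 4408 for sKO, and the genotypes overlapped. The peak listed for Cpm, a carboxypeptidase gene, at chr10:117684950-117689307 covered the end of Mdm2, the ubiquitin ligase that restrains p53.

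Past Actg1, Actb, Eef1a1 and Srsf3, long peaks began before the gene end. This was not general, as 259 of the 458 peaks past an end began downstream of it. The one past Rpl30, a ribosomal protein gene, began 1076 bases downstream. For Actg1, cytoplasmic gamma-actin, the peak began 47 bases before the gene end and ran 3182 bases past it (chr11:120342508-120345737). It had 1539 and 1730 for Ctrl against 1800 and 1162 for sKO, and at 482 per kb was among the densest. The Actb peak at chr5:142896020-142903302 ran 7095 bases past the beta-actin gene, with scores of 2247 and 2959 for Ctrl against 3751 and 2342 for sKO. The peak past Eef1a1, translation elongation factor 1 alpha (chr9:78472927-78479870), also covered the end of Mto1, which converges on it. Its scores were 2856, 2978, 3658 and 2270 in the same order, and the genotypes overlapped. Srsf3, an SR splicing factor, had a peak from 1631 bases before to 8635 bases past its end (chr17:29041742-29052008; 2344 and 3085 for Ctrl against 4153 and 3037 for sKO).

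The last 40 bases of the 438 upstream genes held AATAAA, read on the gene strand, in 56.2% and only ATTAAA in 13.7%. All autosomal protein-coding genes gave 56.9% and 12.7%, nearly the same shares. The upstream genes had a median length of 14753.5 bases, against 17629 for all. The GC content of the long peaks was a median of 48.4% (48.7% for shorter peaks with a gene), their observed-to-expected CpG ratio 0.215 (0.222), and their repeat-masked share 15.3% (8.24%). Of these 3 medians the repeat share differed most from that of the shorter peaks, and none was tested.

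Of the 10 longest peaks, 6 lay past a protein-coding end (among them those of Hnrnpa2b1, Srsf3, Vmp1, Cox20, whose end converges on that of Hnrnpu, and Pcbp2 with Gm10337). Among the other 4 were 2 peaks of Neat1, the architectural lncRNA of paraspeckles. They lay side by side at chr19:5816972-5832763 and chr19:5832819-5843824. The first scored 2841 and 3948 for Ctrl against 5463 and 3761 for sKO, and the second 3221 and 4357 against 6236 and 4271. In both, the genotypes overlapped. Malat1, another nuclear lncRNA, had a peak of 7033 bases with scores of 2439, 2811, 3278 and 2148.

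The last pair were the paralogous miR-23/27/24 clusters, under peaks listed for protein-coding genes. The longest peak of all, at chr13:63299241-63315066 inside the aminopeptidase gene Aopep, held the hairpins Mir23b, Mir27b and Mir24-1, and its centre lay 5878 bases past the nearest of these. It scored 2595 and 3813 for Ctrl against 4374 and 3254 for sKO. The peak listed for Zswim4, which lies on the opposite strand, at chr8:84206781-84219569 held Mir23a, Mir27a and Mir24-2, with 4254 bases from the nearest hairpin to its centre and scores of 2257, 2964, 4162 and 2790. The genotypes overlapped at both (log2 fold changes of 0.26 and 0.40, not called).

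Hairpins were found in 13 of the 589 long peaks (2.21%) and in 49 of the shorter peaks with a gene (0.134%), or 6.02 and 2.90 peaks with a hairpin per Mb of peak sequence. Longer peaks hold more of any feature, and the difference was not tested. The muscle microRNAs miR-206 and miR-133b lay in a peak of 8545 bases on the lncRNA gene Gm28653 (chr1:20678676-20687220). Its scores were 2217 and 2514 for Ctrl against 2910 and 1703 for sKO, with overlap. Mir21a lay in the peak of 10101 bases across the end of Vmp1 (chr11:86575780-86585880; 2496 and 2871 for Ctrl against 3537 and 2442 for sKO). Mirlet7c-2 and Mirlet7b lay in a peak at the end of the lncRNA gene Lncppara (1586, 1573, 1849 and 1383). A peak on the lncRNA 6720427I07Rik (chr13:48527992-48534707) lay 4663 bases by its centre past the nearest hairpin of the Mirlet7d, Mirlet7f-1 and Mirlet7a-1 cluster. Its Ctrl scores of 1519 and 2077 were below the sKO scores of 3092 and 2094, and the log2 fold change of 0.52 was not called.

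The densest peak stood far from the rest. Gm26917, a lncRNA at chr17:39843005-39846373 beside an annotated rRNA gene, had 26219 and 19155 for Ctrl against 24559 and 20658 for sKO, or 6722 per kb. The next densest was Actg1. Long peaks held 13.2% and 12.2% of the autosomal Pol II S2P score in Ctrl and 13.4% and 13.0% in sKO, with overlap. Without Gm26917 the shares were 12.5%, 11.8%, 12.9% and 12.4%. The 458 peaks past an end alone held 9.77% and 9.30% in Ctrl libraries against 10.3% and 9.79% in sKO. Every sKO share was above every Ctrl share, by 9.79% against 9.77% for the nearest pair. Gm26917 was kept in these totals, and whether the order holds without it was not tested.

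Some genes held several long peaks: 56 had more than 1. Aopep had 6, all but 1 over the same H4K20me1 domain. Slc10a1, Plec, Runx1 and Rbm39 were among several genes with 3 each. The Slc10a1 peaks, named for a liver bile acid transporter, all lay past Srsf5, an SR splicing factor. The Plec peaks lay inside the gene of the cytolinker plectin.

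By function, long peaks were frequent on housekeeping genes, counted by the listed gene or by any protein-coding end within 10 kb upstream. They were on or past 21 of 26 SR and hnRNP splicing factor genes (80.8%), 13 of 17 translation factor genes, 20 of 35 cytoskeleton genes, 9 of 16 chaperone genes and 37 of 79 cytosolic ribosomal protein genes (46.8%). Over all autosomal protein-coding genes the share was 4.20% (874 genes). Shares were lower for the other lists: 4 of 12 glycolysis genes, 4 of 19 lncRNA and snoRNA host genes, 4 of 17 cell cycle and p53 response genes, 3 of 26 Pol II and elongation genes (Aff4, Pcf11 and Supt16), 3 of 23 sarcomere genes, 3 of 21 matricellular and adhesion genes and 1 of 24 immediate early genes (Jun). None of 68 replication-dependent histone genes, whose transcripts are not polyadenylated, had one. Of the satellite cell and myogenic factors, 4 of 15 had one (among them Myod1, Id1 and Id3), and of the MuSC markers 3 of 11 (Myod1, Des and Cdh15). Cdh15, which had no listed peak, was counted by its 3′ end, past which lay a peak listed for Galnt2. No fibroblast, endothelial or glial marker had a long peak. The single immune marker with one, Cd68, lay beside Eif4a1, whose 3′ end was within 10 kb upstream of the peak. The lists were drawn up with earlier results of these data known.

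Between genotypes, no long peak passed the test on the deposited scale. Peaks with a mean over 50 (22353) entered limma on log2(score + 1), and a call needed a log2 fold change beyond 0.5 together with p under 0.1 after Benjamini-Hochberg adjustment. By this rule 0 of 589 were called in either direction, against 0.0447% higher and 0.00447% lower of all peaks tested. All 589 passed the filter, and 20 had an unadjusted limma p under 0.05. Among all 22353 tested peaks 774 did, a similar share. The lowest adjusted p was 0.88. The 2 sKO scores exceeded the 2 Ctrl scores in 86 (14.6%) and were under them in 19 (3.23%). For all tested peaks these shares were 16.7% and 6.84%. The median log2 fold change was 0.20 (all tested peaks, 0.11), and it was 0.23 for the peaks past a 3′ end and 0.05 for the 131 others. Over the 589 it turned to −0.073 without sKO replicate 1 and was 0.469 without sKO replicate 2.

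Differences between libraries of 1 genotype were as large as this: the median log2 score over the long peaks was 9.04 and 9.36 for Ctrl, 9.64 and 9.09 for sKO, a difference of 0.16 with SDs of 0.22 and 0.39 (n = 2 each). Libraries were then set to the same autosomal total. On these equal totals 42 long peaks rose (7.13%; all tested, 2.51%; tested peaks with a mean over 200, 4.75%) and 17 fell (2.89%; 1.19%; 3.31%). Every long peak had a mean score of at least 242. In bulk cells, fewer cells with a signal and less signal per cell cannot be told apart. The peaks past a 3′ end had 36 higher and 10 lower, and the other 131 had 6 and 7. Median log2 fold changes on equal totals were 0.09 and −0.09 for these sets and −0.06 for shorter peaks with a gene. The shorter peaks also differed by position, with −0.003 past a 3′ end (2.75% called higher) and −0.085 elsewhere (0.851%). The difference between the sets was not tested. Leaving out sKO replicate 1 left 12 higher and 6 lower. Only 9 of the 59 called on equal totals were called with each library left out in turn, 7 higher and 2 lower.

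**Figure D3:**
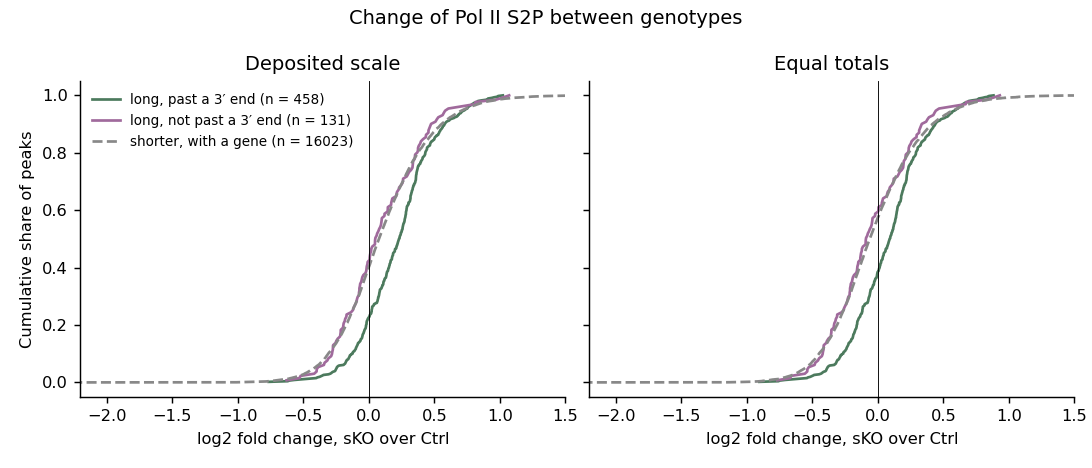
Cumulative share of peaks (vertical axis) by log2 fold change of Pol II S2P, sKO over Ctrl (horizontal axis), on the deposited scale (left) and on equal totals (right), for long peaks past a protein-coding 3′ end, other long peaks and shorter peaks with a gene. Around the middle of the distribution the line of the 458 peaks past an end lies to the right of the other 2, which it meets at the upper end, with medians of 0.23 and 0.09 on the 2 scales.

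Aebp2, which encodes a PRC2 cofactor, had 2 adjoining long peaks inside the gene. The one at chr6:140665481-140667823 scored 247 and 383 for Ctrl against 865 and 484 for sKO. All sKO values lay above all Ctrl values. Its log2 fold change of 1.07 ± 0.40 (SE) had an adjusted p of 0.88 with limma on the deposited scale and was 0.93 ± 0.16 with an adjusted p of 9.57e-05 on equal totals. The other, at chr6:140661963-140665250, gave 340, 538, 979 and 716, and 0.83 ± 0.15 on equal totals (limma adjusted p = 0.000185).

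The peak past Mdm2, listed for Cpm, had 417 and 501 for Ctrl against 1083 and 798 for sKO. These did not overlap. Its log2 fold change was 1.02 ± 0.40 as deposited and 0.88 ± 0.14 on equal totals (limma adjusted p = 3.59e-05). The Rflna peak at chr5:125003785-125005815, in a gene for a filamin-interacting protein, had 174 and 280 against 543 and 372, also without overlap, and 0.88 ± 0.17 on equal totals (adjusted p = 0.000729). These peaks, and those listed for Mrnip (past Sqstm1) and Isg20 (past Aen), kept their call without any single library on equal totals. As deposited, none was called.

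Among peaks with both sKO scores below both Ctrl scores, the lowest log2 fold change was that of Myod1, the myogenic transcription factor. Its peak began 85 bases before the gene end and ran 3014 bases past it (chr7:46379014-46382113). It scored 1054 and 893 for Ctrl against 673 and 485 for sKO, without overlap. The log2 fold change was −0.76 ± 0.40 as deposited (adjusted p = 0.9998) and −0.90 ± 0.15 on equal totals (limma adjusted p = 3.59e-05), and it remained called on equal totals without any single library, as did the peak past Tmsb10, a thymosin gene, listed for Gm26640.

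Ptma, prothymosin alpha, had 719 and 802 for Ctrl against 527 and 464 for sKO over chr1:86530664-86533009, again past the gene end (−0.62 ± 0.40 as deposited; −0.76 ± 0.15 and adjusted p = 0.000809 on equal totals with limma). The Lncppara peak at chr15:85677799-85681386, upstream of the let-7 peak, had 682 and 739 against 461 and 458 (−0.63 ± 0.40 and −0.77 ± 0.15). Without sKO replicate 1, neither passed the test on equal totals with limma, at log2 fold changes of −0.60 (adjusted p = 0.14) and −0.52 (adjusted p = 0.246).

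**Figure D4:**
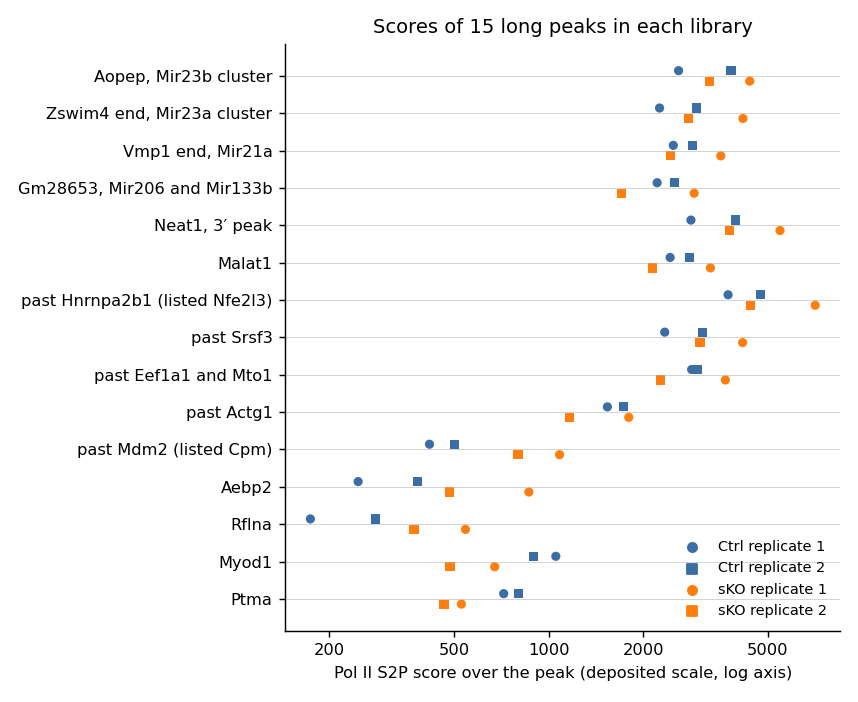
Pol II S2P score over 15 long peaks (horizontal log axis, deposited scale) in each of the 4 libraries, Ctrl in blue and sKO in orange, with circles for replicate 1 and squares for replicate 2. The genotypes are apart for Mdm2, Aebp2, Rflna, Myod1 and Ptma, and overlap for the other 10.

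Read by list on equal totals, called members were few, against 7.13% higher and 2.89% lower of all long peaks and 2.51% and 1.19% of all tested peaks. Of 28 long peaks on or past SR and hnRNP genes 2 rose, both past Srsf5, and none fell. The 14 on translation factors, 10 on chaperones, 5 on glycolysis genes, 5 on lncRNA and snoRNA hosts, 3 on Pol II and elongation genes, 3 on sarcomere genes and 1 on immediate early genes gave no call. Of 39 on ribosomal protein genes 1 fell (Rpl26), and of 27 on cytoskeleton genes 1 rose (Myl12b) and 3 fell (Zyx, a focal adhesion protein, the peak past Acta2 listed for Stambpl1, and Actb). The Zyx call was on a peak centred past the end of Epha1. The peak past Zyx, listed for Epha1, was not called (1651.6 and 1487.6 for Ctrl against 1552.9 and 1476.0 for sKO on equal totals). The Actb call was over the gene body (779 and 554 for Ctrl against 592 and 354 for sKO, overlapping as deposited), while the peak past the gene had a log2 fold change of 0.06. Of 4 on satellite cell and myogenic factors 2 fell, Myod1 and Id3, an inhibitor of bHLH factors. The Id3 peak did not pass without Ctrl replicate 1, sKO replicate 1 or sKO replicate 2 (limma adjusted p = 0.472, 0.278 and 0.107, with log2 fold changes of −0.36, −0.48 and −0.55). Id1 had −0.26 and was not called. Of 3 on the MuSC markers 1 fell, again Myod1. The cell cycle and p53 list had 1 rise of 5 (Mdm2) and the matricellular and adhesion list 1 of 3 (past Itgb1, listed for Ccdc7). Of the calls named in these lists, only those at Mdm2 and Myod1 were made with each library left out in turn.

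H4K20me1 was measured with another antibody in other libraries, and the rule did not use it. An H4K20me1 peak overlapped 457 of the 589 long peaks (77.6%) and 69.3% of the shorter peaks with a gene. The 457 met 402 distinct H4K20me1 peaks, so some domains were counted for several long peaks. These domains were long, with a median of 30000 bases over the 457 (all tested H4K20me1 peaks, 8600). Over the 457, the Spearman correlation of Pol II S2P with H4K20me1 score per kb was −0.179, a weak value from peaks of different lengths.

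H4K20me1 on the deposited scale rose at 257 of the 457 (56.2%) and fell at none, with limma as above. Without sKO replicate 1 the count was 92 and without sKO replicate 2 it was 65, with medians of 0.643 and 0.575. Across all 40902 tested peaks 90.1% rose and 0.00244% fell. The median log2 fold change was 0.60 at the long peaks and 1.14 over all. At H4K20me1 peaks that met only shorter Pol II S2P peaks with a gene, 91.4% rose, with a median of 1.18. Where no Pol II S2P peak lay, 89.9% rose, with a median of 1.13. The 2 sKO scores exceeded the 2 Ctrl scores at 79.6% of the long peaks, against 93.9% of all. They were under them at 6 of the 457 long peaks, or 5 of the 402 distinct domains. Of all 40902 tested peaks they were under them at 11 (0.0269%).

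By library, the median log2 H4K20me1 score at the long peaks was 9.76 and 10.19 for Ctrl, 10.45 and 10.56 for sKO, a difference of 0.53. Over all tested peaks it was 7.22 and 7.64 against 8.58 and 8.74, a difference of 1.23. In score per kb the domains at long peaks had a Ctrl median of 33.0 and an sKO median of 51.6, and all domains had 22.3 and 49.0. The Ctrl levels differed more than the sKO levels.

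The change moved with the Ctrl level. In the quartile of H4K20me1 peaks with the highest Ctrl score per kb (26.7 to 78.8), which held 288 of the 402 domains, the median log2 fold change was 0.46 at long peaks and 0.73 at the other 9938. In the 3 lower quartiles it was 1.95, 1.33 and 1.05 at long peaks (28, 35 and 51 domains) and 1.75, 1.28 and 0.996 elsewhere. The quartiles share the Ctrl libraries with the contrast, and the part of the Ctrl level was not tested.

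**Figure D5:**
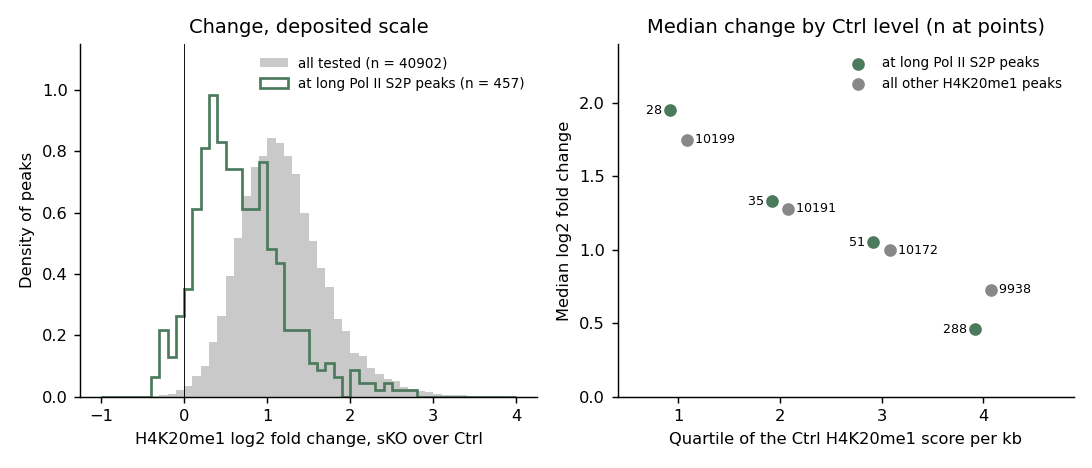
Left, density of H4K20me1 log2 fold changes (sKO over Ctrl, deposited scale) for all tested peaks (grey) and those at long Pol II S2P peaks (green). Right, median log2 fold change by quartile of the Ctrl score per kb with the number of domains beside each point; in the highest quartile the medians are 0.46 and 0.73.

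The direction depended on the scale. On equal totals 31 of the 457 rose (6.78%; all tested, 22.6%) and 177 fell (38.7%; 4.41%), with a median of −0.38. The spike-in scale carries the difference of the library sums, and which scale is right was not tested.

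The 5 domains with the largest called rises were picked by fold change, which favours domains with a low Ctrl score. Their scores are sums that grow with domain length. At Cic, a transcriptional repressor, the domain over the long peak went from 37 and 54 in Ctrl to 279 and 321 in sKO, or 2.71 ± 0.41 on the log2 scale (limma adjusted p = 1.02e-09). Those at Slc39a13 (past Psmc3, a proteasome subunit) had 70 and 86 against 460 and 495, and at Cxxc5 136 and 150 against 774 and 920. None of these overlapped. Wbp1 (past Ino80b and Mogs) had 2.46 and Chrna1, a muscle acetylcholine receptor subunit, 2.42. All 5 also rose on equal totals. The Pol II S2P of the 5 peaks was not called on either scale except at Chrna1, which fell on equal totals (−0.53, limma adjusted p = 0.0346).

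Other domains were not called as deposited. At Pkm, which encodes the muscle and tumour pyruvate kinase, the domain had 1057 and 1245 for Ctrl against 807 and 976 for sKO, below without overlap but not called (−0.37 ± 0.27). Malat1 had 357 and 498 against 290 and 381. Srsf3 had 736 and 901 against 655 and 703. The domain shared by Romo1 and Rbm39 had 1842 and 2436 against 1663 and 1895. On equal totals all 4 fell, with log2 fold changes of −1.35, −1.32, −1.24 and −1.24 in that order.

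Across lists and on the deposited scale, where 56.2% of the long peaks with a domain and 90.1% of all tested domains rose, H4K20me1 rose at 21 of 28 long peaks with a domain on ribosomal protein genes (median 0.80) and at 10 of 19 on cytoskeleton genes (0.59). It rose at 6 of 25 on SR and hnRNP genes (0.34), 3 of 12 on translation factors (0.17) and 3 of 8 on chaperones (0.37). The myogenic factors Myod1, Id1 and Id3 had no H4K20me1 peak over their long peaks. These counts were not compared by a test, and on equal totals more of the 457 fell (177) than rose (31).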

How the data were processed

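CUT&RUN libraries of Pol II S2P and H4K20me1 from cultured MuSCs were used, 2 for each genotype and antibody. The 2 IgG libraries were not analysed here. Per the labels and the methods, the authors trimmed reads (Trimmomatic 0.39), aligned them to mm10 (STAR 2.7.3a), removed duplicates (Picard 2.21.7), called peaks (MACS2 2.1.1 or SICER 0.0.41), merged them over libraries into 1 union per antibody and deposited a spike-in-scaled, rounded coverage score per peak. The scores are not read counts, so no count model was used and the limits on precision are the 2 libraries per group. The score is summed over a peak and grows with its length. Peak positions are printed as in the tables, where an offset of 1 base is possible.

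Long peaks, and the gene lists, were chosen with earlier results of these data known. Gene ends came from GENCODE M21 (GRCm38), sequences from the RefSeq GRCm38.p6 genome. Peaks with a mean score over 50 entered limma 3.58.1 (R 4.3.3) with an intensity trend on log2(score + 1), without a replicate block. p-values were adjusted over all autosomal peaks tested. The script was tested on simulated data. Members named in the text were the 10 longest, the 10 with the highest score per kb and those next to the length limit. Also named were 5 genes with most members, of which all but Aopep came from a larger tie at 3 members. The others were the 3 largest rises and falls without overlap, the 5 largest called H4K20me1 rises, and members on listed genes. The microRNA clusters, the domains that did not rise and the genes chosen for printing were picked after their values were seen. Alternatives were equal totals, quantile normalization, a pseudocount of 10, no filter, a mean over 200, no fold limit, a replicate block and each library left out. Some genes are not reported here.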

Additional observations from a re-analysis of the deposited data

Results flagged for a closer look

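Pol II S2P signal also lay in 184 long autosomal peaks with no gene identifier, which the comparisons above left out. They held 2.79% and 2.76% of the autosomal score in Ctrl and 3.23% and 3.06% in sKO, both sKO libraries above both Ctrl libraries. The 13258 shorter peaks without a gene had the same order, with 20.2% and 20.6% in Ctrl against 21.8% and 21.6% in sKO. Of the 184, 166 (90.2%) were centred 0 to 10 kb past a protein-coding 3′ end. On equal totals 27 rose (14.7%) and 2 fell (1.09%) with limma. These shares were 2.51% and 1.19% for all tested peaks and 4.75% and 3.31% for tested peaks with a mean over 200. They were 4.73% and 0.738% for tested shorter peaks without a gene, and 7.13% and 2.89% for the long peaks with a gene. The longest of the 184 lay past Ywhaz, a 14-3-3 gene, over 8492 bases with 1483 and 2268 in Ctrl and 3383 and 2009 in sKO. The peak past Csnk1a1, casein kinase 1 alpha, rose on equal totals (1327 and 1996 in Ctrl, 3386 and 2136 in sKO). Without a gene identifier the 184 peaks fall outside any count by listed gene.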

How the results depend on the processing

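For Pol II S2P at the long peaks, 0 called higher and 0 lower on the deposited scale became 42 and 17 on equal totals and 43 and 20 with quantile normalization. Other pseudocounts and filters kept 0. Leaving out 1 library gave 0 to 4 higher and medians of −0.073 to 0.469 (4 without sKO replicate 2, negative without sKO replicate 1). With alternatives chosen after seeing the data, equal totals gave 41 and 17 with the replicate block, and without Ctrl replicate 1, Ctrl replicate 2, sKO replicate 1 and sKO replicate 2 in turn 22, 53, 12 and 35 higher and 5, 36, 6 and 9 lower. For H4K20me1, 257 higher became 31 higher and 177 lower (median −0.379) on equal totals, and 25 and 159 (−0.324) with quantile normalization. Leaving out 1 library gave 65 to 329 higher (92 without sKO replicate 1, 65 without sKO replicate 2), and 0 to 3 lower. Equal totals with the replicate block gave 31 and 178 (−0.379), and without the libraries in the same order 39, 27, 28 and 26 higher, 165, 187, 183 and 161 lower, and medians of −0.344, −0.401, −0.399 and −0.346. The cause of these differences was not tested.

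The replicate block left 0 calls for Pol II S2P and gave 256 H4K20me1 rises. Same-numbered libraries did not deviate together across peaks (correlations of −0.0445 and 0.0345). With 2 libraries per genotype and antibody, this cannot tell whether they shared a preparation. The rule at 1500 or 3000 bases gave 1013 or 294 peaks. Requiring H4K20me1 over at least 50% of the peak gave 72.5%, and windows of 5000 or 20000 bases past a 3′ end gave 63.7% and 83.5%.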
